A study of Mus musculus with 13 samples.

Results

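Stem cells of the intestinal crypt are recognised by a short list of marker genes, and 10 of these were followed here across normal epithelium and adenomas of the mouse small intestine. Crypt base markers were Lgr5, Ascl2, Olfm4, Smoc2, Tnfrsf19, Rgmb and Slc12a2 (7 genes), and reserve markers were Lrig1, Hopx and Bmi1 (3 genes). Each was read on a probe set that the platform annotation assigns to that gene symbol alone. All 10 were found, of 19938 genes with such a probe set, and each had 1 probe set. The RNA of each sample was hybridised to 1 Affymetrix Mouse Gene 1.0 ST array, 13 in all. The groups were adenomas (n = 3), normal epithelium with high FP expression, called FP-high (n = 4), and normal epithelium with low FP expression, called FP-low (n = 6). Both kinds of normal epithelium lay next to adenomas, so that no group here came from tumour-free mice. All 3 groups came from the same cross, of Apc mutant mice with mice carrying FP transgenes. What FP stands for is not given in the sources, nor are the Apc allele, the promoter of the transgenes, and the sex and age of the mice. Whether several arrays came from 1 animal is not stated, so p-values reflect the spread between samples, part of which may be technical. Crypts were picked with glass capillaries, and their RNA was amplified before labelling. Precision is limited by the small number of arrays.

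The crypt base holds cycling stem cells that lie between Paneth cells and renew the epithelium. Wnt ligands and R-spondins from their surroundings keep them in the stem cell state, Notch signals from neighbouring cells keep them from secretory differentiation, and BMP signals from above limit their number. Apc is part of the complex that destroys beta-catenin, so its loss switches on Wnt target genes without a ligand. Lgr5, Ascl2 and Tnfrsf19 are Wnt targets of the mouse crypt, and Olfm4 depends there on Notch. Reserve stem cells are a proposed population above the crypt base that divides rarely and can replace lost base cells. Lrig1, Hopx and Bmi1 were put forward as its markers, although transcripts of these genes are also found in cycling base cells.

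Of the markers, Lgr5 stood higher in adenomas than in normal epithelium, and Olfm4 stood lower in all 3 adenomas than in every FP-low array. Lgr5 was 4.01-fold higher in adenomas than in FP-high epithelium and passed the test across all probe sets, a call that ended without the divergent array FP-high replicate 1 (adjusted p = 0.0520), with the replicate number as a block (0.108) and after quantile normalization (0.0718). Olfm4 did not pass in the fit of all arrays. Without FP-high replicate 1 it passed against FP-low epithelium and against both normal groups, but not against FP-high epithelium (limma, adjusted p = 0.117). Between FP-high and FP-low epithelium, the means of all 10 markers were lower in FP-high, by a median of -0.61 on the log2 scale, where 43.7% of all probe sets were lower, and none passed. Without FP-high replicate 1, 8 of 10 were lower, by a median of -0.37, where 45.4% of all probe sets were lower. Of the reserve markers, none passed in adenomas: Bmi1 had its highest group mean there, and Hopx and Lrig1 had adenoma means below the FP-low mean. The contrast of Bmi1 with Hopx and Lrig1 was not tested.

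Values are the deposited log2 levels, so a difference of 1 unit is a 2-fold difference. Each difference is given with its standard error (SE) from a limma fit of all 13 arrays, in which the 3 groups share 1 estimate of the spread. An adjusted p (Benjamini-Hochberg over 23410 named probe sets, two-sided) under 0.05 counts as a call. FP-high replicate 1 differed from all other arrays: the SD of its log2 values was 1.21, against 1.89 to 2.10 in the other arrays, and its median correlation with the others was 0.762, against 0.943 to 0.968. Each fit was also run without it. The epithelial label was checked on Epcam, an adhesion molecule of epithelial cells, which read 9.24 to 9.33 in adenomas, 7.58 to 9.24 in FP-high arrays and 9.03 to 9.58 in FP-low arrays. Its lowest value, 7.58, was in FP-high replicate 1. The keratin Krt8 read 12.1 to 12.7 in adenomas, 8.65 to 12.04 in FP-high arrays and 11.1 to 12.3 in FP-low arrays. Of all 9 epithelial markers, 5 had a lower mean in adenomas than in FP-low epithelium (median -0.15), where 61.0% of all probe sets did. In FP-high epithelium 7 of 9 did (median -0.50, and -0.12 without FP-high replicate 1), where 43.7% of all probe sets did. Cdh1 went down to 5.15 and Vil1 to 5.16 in FP-high arrays, against lowest FP-low values of 8.77 and 6.68. Both of these low values were in FP-high replicate 1. Without that array FP-high epithelium differed from FP-low by -0.18 in Cdh1 and by 0.99 in Vil1, and neither was called. In a bulk sample, fewer cells of a type and less RNA per cell cannot be told apart, which holds for each marker below.

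**Figure D1:**
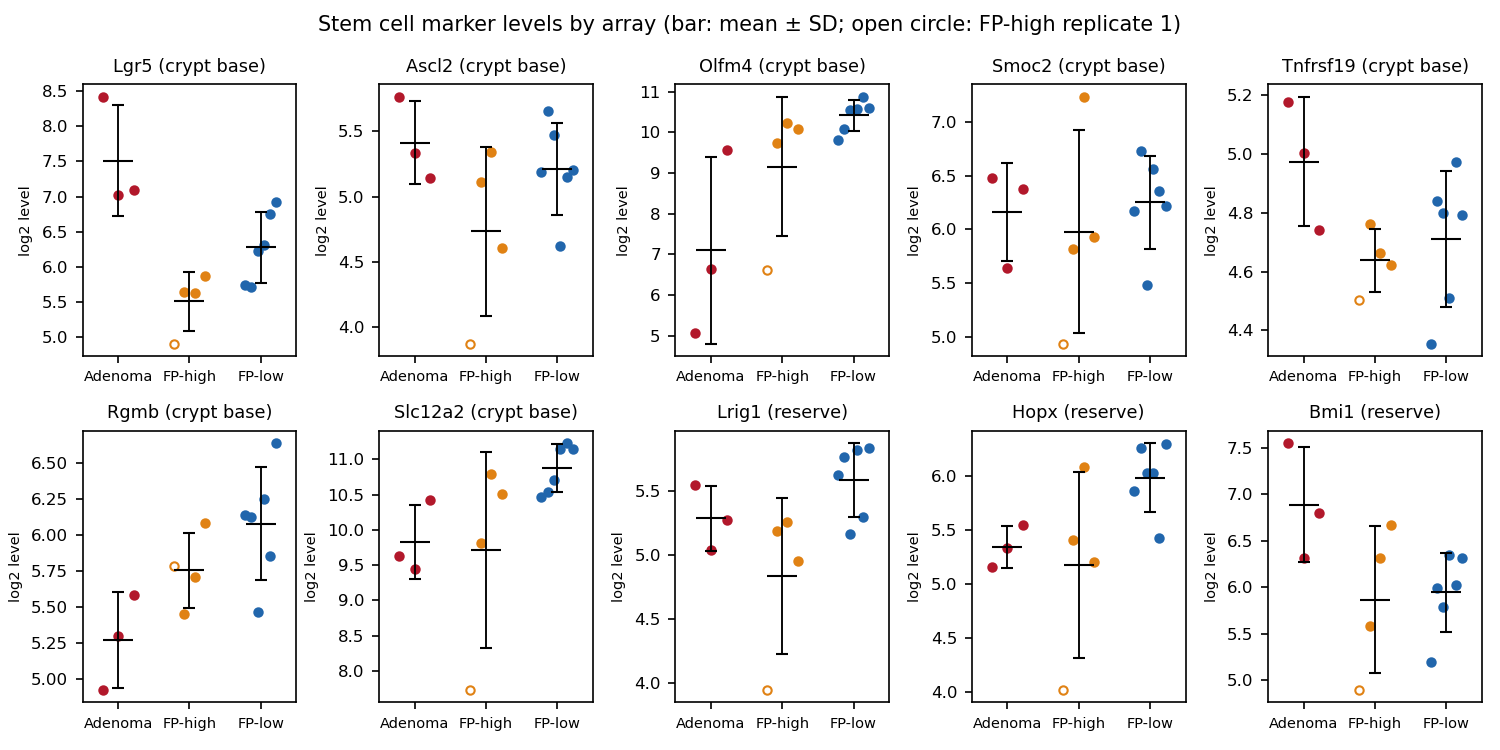
Log2 level (vertical axes, 1 scale per gene) of each marker in every array of the adenoma, FP-high and FP-low groups; bars are the mean ± SD and the open circle is FP-high replicate 1. Lgr5 was at 7.02 or above in all 3 adenomas, and Olfm4 was at 9.58 or below in them, whereas all 6 FP-low arrays were at 9.81 or above.

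Lgr5 is the R-spondin receptor that defines cycling crypt base cells. Its level was 8.42, 7.02 and 7.10 in the 3 adenomas. It was 4.91, 5.64, 5.62 and 5.86 in FP-high epithelium and had a lowest, median and highest value of 5.72, 6.26 and 6.92 in FP-low epithelium. Every adenoma lay above every normal array, adenoma replicate 1 by the widest margin, and the FP-high and FP-low ranges overlapped by a narrow band. Group means were 7.51 ± 0.79 in adenomas (SD, n = 3), 5.51 ± 0.42 in FP-high (n = 4) and 6.28 ± 0.50 in FP-low epithelium (n = 6), so that FP-low stood between the others.

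Against FP-high epithelium, the difference of adenomas in Lgr5 was 2.004 ± 0.386 (limma, adjusted p = 0.0327). Of all probe sets, 0.765% were called in this comparison and 0.748% were called as higher. Lgr5 was the 1 marker of 10 called and the 1 of 10 whose groups did not overlap, where 17.1% of all probe sets did not overlap. With the replicate number as a block, the difference was 2.11 and the call ended (limma, adjusted p = 0.108). Leaving out FP-high replicate 1 ended it too, at a difference of 1.80 and adjusted p = 0.0520. The same held for FP-high replicate 2 (adjusted p = 0.0628), for each adenoma array (adjusted p = 0.0526 to 0.139) and, narrowly, for FP-low replicate 4 (adjusted p = 0.0537).

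Against the mean of both normal groups, Lgr5 was 1.62 ± 0.33 higher in adenomas, a 3.07-fold difference (limma, adjusted p = 0.0417). Here 0.910% of all probe sets were called and 0.884% were called as higher. Lgr5 was again the 1 marker of 10 without overlap, against 3.97% of all probe sets. Without FP-high replicate 1 its difference was 1.52 (adjusted p = 0.0327). The call ended with the replicate block (1.87, adjusted p = 0.118) and without adenoma replicate 1 (1.17, adjusted p = 0.298), adenoma replicate 2 (adjusted p = 0.0826) or adenoma replicate 3 (adjusted p = 0.0678). Omitting 1 of FP-high replicates 2 to 4 or of FP-low replicates 1 to 4 gave adjusted p = 0.0527 to 0.0709.

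Set against FP-low epithelium alone, Lgr5 was 1.24 ± 0.36 higher in adenomas, with a 95% interval of 0.46 to 2.01, and did not pass (adjusted p = 0.240; 0.0983 without FP-high replicate 1). FP-high epithelium differed from FP-low by -0.77 ± 0.33 (adjusted p = 0.390), and by -0.57 ± 0.34 without FP-high replicate 1 (adjusted p = 0.677). These comparisons share arrays of the normal groups and are not independent.

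Olfm4 encodes a secreted glycoprotein that is abundant in mouse crypt base cells. Its level was 5.07, 6.65 and 9.58 in the 3 adenomas. It was 6.61, 9.74, 10.22 and 10.08 in FP-high epithelium, and 9.81, 10.56 and 10.87 were the lowest, median and highest FP-low values. The 3 adenomas were spread widely, all below the FP-low range, and FP-high replicate 1 lay among them while FP-high replicate 2 was just below the FP-low range and replicates 3 and 4 were inside it.

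The adenoma mean of Olfm4 was 7.10 ± 2.29 (SD, n = 3), against 10.42 ± 0.39 in FP-low epithelium (n = 6), a difference of -3.32 ± 0.89 with a 95% interval of -5.25 to -1.39. The linear ratio of these means was 0.1002. It did not pass with all arrays (limma, adjusted p = 0.186), where 0.551% of all probe sets were called. Leaving out FP-high replicate 1 does not change this difference but lowers the shared spread, and the SE was then 0.70 and Olfm4 was called (adjusted p = 0.0369), as were 0.513% of all probe sets in the lower direction. It was also called without adenoma replicate 3, the highest of the 3 (-4.56, adjusted p = 0.0239).

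Against both normal groups the difference of adenomas in Olfm4 was -2.69 ± 0.84 (adjusted p = 0.227). It was -3.12 ± 0.67 without FP-high replicate 1 (adjusted p = 0.0342), where 0.615% of all probe sets were called as lower, and -3.93 without adenoma replicate 3 (adjusted p = 0.0410). Against FP-high epithelium alone it was -2.06 ± 0.96 (adjusted p = 0.322), and -2.92 ± 0.81 without FP-high replicate 1 (adjusted p = 0.117). FP-high epithelium differed from FP-low by -1.26 ± 0.81 (adjusted p = 0.444) and by -0.40 ± 0.70 without that array.

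Promoter windows of 300 bases, 250 before and 50 after each start site, were taken from RefSeq (GRCm38.p6). No window of Lgr5, Smoc2 or Slc12a2 was searched, so nothing is said here of their promoters. The 11 windows used belong to the other 7 markers. Each was searched on both strands for CTTTGA, the core of TCF and LEF sites through which Wnt targets are activated, CAGCTG, a form of the E-box bound by factors of the Ascl2 family, and TGGGAA, the core of RBPJ sites used by Notch. Over 32851 promoters of the same length, 16.0% held CTTTGA, 16.3% held CAGCTG and 25.6% held TGGGAA. Windows of 3 markers are printed because between them they hold each motif, with the matches in capitals. For Olfm4 this is chr14:80000052-80000351 on the plus strand, with TGGGAA 12 bases before the start site. For Tnfrsf19 it is chr14:61037938-61038237 on the minus strand, with CTTTGA in reverse complement 201 bases before the start site and CAGCTG 10 bases before it. For Hopx it is chr5:77115074-77115373 on the minus strand, with CAGCTG 33 bases after the start site.
Olfm4: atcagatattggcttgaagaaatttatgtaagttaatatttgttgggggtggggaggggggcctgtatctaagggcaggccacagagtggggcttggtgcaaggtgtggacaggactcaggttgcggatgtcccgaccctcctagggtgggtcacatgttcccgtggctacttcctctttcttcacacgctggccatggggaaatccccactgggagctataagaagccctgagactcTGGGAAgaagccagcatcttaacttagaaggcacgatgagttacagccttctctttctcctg
Tnfrsf19: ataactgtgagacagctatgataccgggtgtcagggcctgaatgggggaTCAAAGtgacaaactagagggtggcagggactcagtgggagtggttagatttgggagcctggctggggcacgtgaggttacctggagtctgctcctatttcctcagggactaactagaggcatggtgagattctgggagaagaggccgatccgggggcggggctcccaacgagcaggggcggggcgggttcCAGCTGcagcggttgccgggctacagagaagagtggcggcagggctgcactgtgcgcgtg
Hopx: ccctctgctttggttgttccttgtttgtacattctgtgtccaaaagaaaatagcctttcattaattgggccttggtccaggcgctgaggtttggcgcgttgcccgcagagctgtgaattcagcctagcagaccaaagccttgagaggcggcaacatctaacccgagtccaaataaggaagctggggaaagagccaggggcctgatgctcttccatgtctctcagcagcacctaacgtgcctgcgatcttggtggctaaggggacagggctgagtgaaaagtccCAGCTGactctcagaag
The remaining match was TGGGAA in reverse complement, 246 bases before the start site of Bmi1. No motif overlapped another in these windows. The other 7 windows, which belong to Ascl2, Rgmb, Lrig1 and further start sites of Tnfrsf19 and Hopx, held none of the 3 motifs, and a match describes the letters of a window and not a bound site.

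Ascl2 is the basic helix-loop-helix factor that specifies the crypt base state. It read 5.76, 5.33 and 5.14 in adenomas and 3.87, 5.11, 5.34 and 4.61 in FP-high epithelium, with a lowest, median and highest FP-low value of 4.62, 5.19 and 5.65. Adenoma replicate 1 was the highest array and FP-high replicate 1 the lowest, and the 3 groups overlapped. Adenomas differed by 0.20 ± 0.30 from FP-low epithelium (95% interval -0.46 to 0.85, adjusted p = 0.990) and by 0.68 ± 0.33 from FP-high epithelium (adjusted p = 0.329), or 0.39 ± 0.27 without FP-high replicate 1 (adjusted p = 0.485). In FP-high against FP-low epithelium the difference was -0.48 ± 0.28, and -0.20 ± 0.23 without FP-high replicate 1.

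Tnfrsf19, also known as Troy, is a receptor that dampens Wnt signalling in Lgr5-positive cells of the mouse. Levels were 5.18, 5.01 and 4.74 in adenomas and 4.50, 4.76, 4.66 and 4.62 in FP-high epithelium, and ran from 4.36 over a median of 4.80 to 4.97 in FP-low epithelium. Adenoma replicates 1 and 2 lay above all normal arrays and replicate 3 lay among them. The differences of adenomas were 0.26 ± 0.16 from FP-low (adjusted p = 0.823) and 0.34 ± 0.17 from FP-high epithelium (adjusted p = 0.346). FP-high epithelium differed from FP-low by -0.07 ± 0.15, with a 95% interval of -0.39 to 0.24, and by -0.03 ± 0.15 without FP-high replicate 1.

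Rgmb is a co-receptor for BMP ligands that also binds neogenin. It read 4.92, 5.30 and 5.59 in adenomas and 5.78, 5.45, 5.71 and 6.09 in FP-high epithelium, against a lowest, median and highest value of 5.47, 6.14 and 6.64 in FP-low epithelium. Adenoma replicates 1 and 2 were below all normal arrays, and replicate 3 overlapped with both normal groups. The adenoma difference was -0.81 ± 0.24 from FP-low epithelium (95% interval -1.33 to -0.29, adjusted p = 0.256) and -0.49 ± 0.26 from FP-high epithelium (adjusted p = 0.353). FP-high and FP-low epithelium differed by -0.32 ± 0.22, and FP-high replicate 1, at 5.78, was not the lowest array of its group for this gene.

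Smoc2 encodes a secreted matrix protein whose relative in Xenopus antagonises BMP signalling. Adenomas read 6.48, 5.64 and 6.38, FP-high epithelium 4.94, 5.82, 7.24 and 5.93, and FP-low epithelium had a lowest, median and highest value of 5.48, 6.29 and 6.73. The FP-high group held both the lowest and the highest array, and all groups overlapped. No comparison gave a difference beyond 0.28 in size, with -0.09 ± 0.41 for adenomas against FP-low epithelium and -0.28 ± 0.38 for FP-high against FP-low epithelium (0.07 ± 0.34 without FP-high replicate 1).

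Slc12a2 is the cotransporter that loads epithelial cells with sodium, potassium and chloride for fluid secretion, and its transcript is enriched in the crypt. It read 9.63, 9.44 and 10.42 in adenomas and 7.73, 9.81, 10.80 and 10.51 in FP-high epithelium, against a lowest, median and highest value of 10.47, 10.93 and 11.23 in FP-low epithelium. Every adenoma lay below every FP-low array, adenoma replicate 3 by a narrow margin, while FP-high arrays 3 and 4 lay inside the FP-low range. Adenomas differed from FP-low epithelium by -1.04 ± 0.53 (adjusted p = 0.719), or ± 0.27 without FP-high replicate 1 (adjusted p = 0.0890). FP-high epithelium differed from FP-low by -1.16 ± 0.48 (adjusted p = 0.389), and by -0.50 ± 0.27 without FP-high replicate 1 (adjusted p = 0.649). Slc12a2, Olfm4 and Lgr5 were the 3 of 10 markers whose adenoma and FP-low arrays did not overlap, against 9.31% of all probe sets.

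Lrig1, a transmembrane protein that restrains receptors of the EGF family, read 5.54, 5.04 and 5.27 in adenomas. FP-high arrays read 3.95, 5.18, 5.26 and 4.95, and the lowest, median and highest FP-low values were 5.16, 5.69 and 5.83. FP-high replicate 1 was far below the rest, and replicates 2 and 3 reached the lower end of the FP-low range. Lrig1 had the smallest p of the markers between FP-high and FP-low epithelium, at a difference of -0.75 ± 0.25 (95% interval -1.29 to -0.21), but did not pass (adjusted p = 0.339). Without FP-high replicate 1 the difference was -0.45 ± 0.18 (adjusted p = 0.505). In adenomas it was -0.30 ± 0.27 from FP-low (adjusted p = 0.943) and 0.45 ± 0.29 from FP-high epithelium (adjusted p = 0.408), which became 0.15 ± 0.20 without FP-high replicate 1 (adjusted p = 0.739).

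Hopx is a small homeodomain protein that does not bind DNA itself. Levels were 5.15, 5.33 and 5.54 in adenomas and 4.01, 5.40, 6.08 and 5.20 in FP-high epithelium, with 5.42, 6.03 and 6.30 as the lowest, median and highest FP-low values. Adenoma replicates 1 and 2 were below every FP-low array, and the FP-high group reached from the lowest array of all into the FP-low range. Between FP-high and FP-low epithelium the difference was -0.81 ± 0.32 (adjusted p = 0.386), and -0.42 ± 0.22 without FP-high replicate 1 (adjusted p = 0.633). Adenomas differed by -0.64 ± 0.35 from FP-low (adjusted p = 0.763) and by 0.17 ± 0.37 from FP-high epithelium (adjusted p = 0.795), a difference whose sign turned without FP-high replicate 1 (-0.22 ± 0.25, adjusted p = 0.699).

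Bmi1, a subunit of Polycomb repressive complex 1 that holds genes silent, read 7.55, 6.32 and 6.80 in adenomas and 4.89, 5.58, 6.32 and 6.67 in FP-high epithelium. Its lowest, median and highest FP-low values were 5.20, 6.01 and 6.35. Adenoma replicates 1 and 3 were above all normal arrays and replicate 2 was inside their range. The adenoma difference was 0.95 ± 0.39 from FP-low (95% interval 0.11 to 1.78, adjusted p = 0.568) and 1.02 ± 0.42 from FP-high epithelium (adjusted p = 0.280; 0.70 ± 0.37 and 0.379 without FP-high replicate 1). FP-high and FP-low epithelium differed by -0.08 ± 0.35, and by 0.25 ± 0.32 without FP-high replicate 1.

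**Figure D2:**
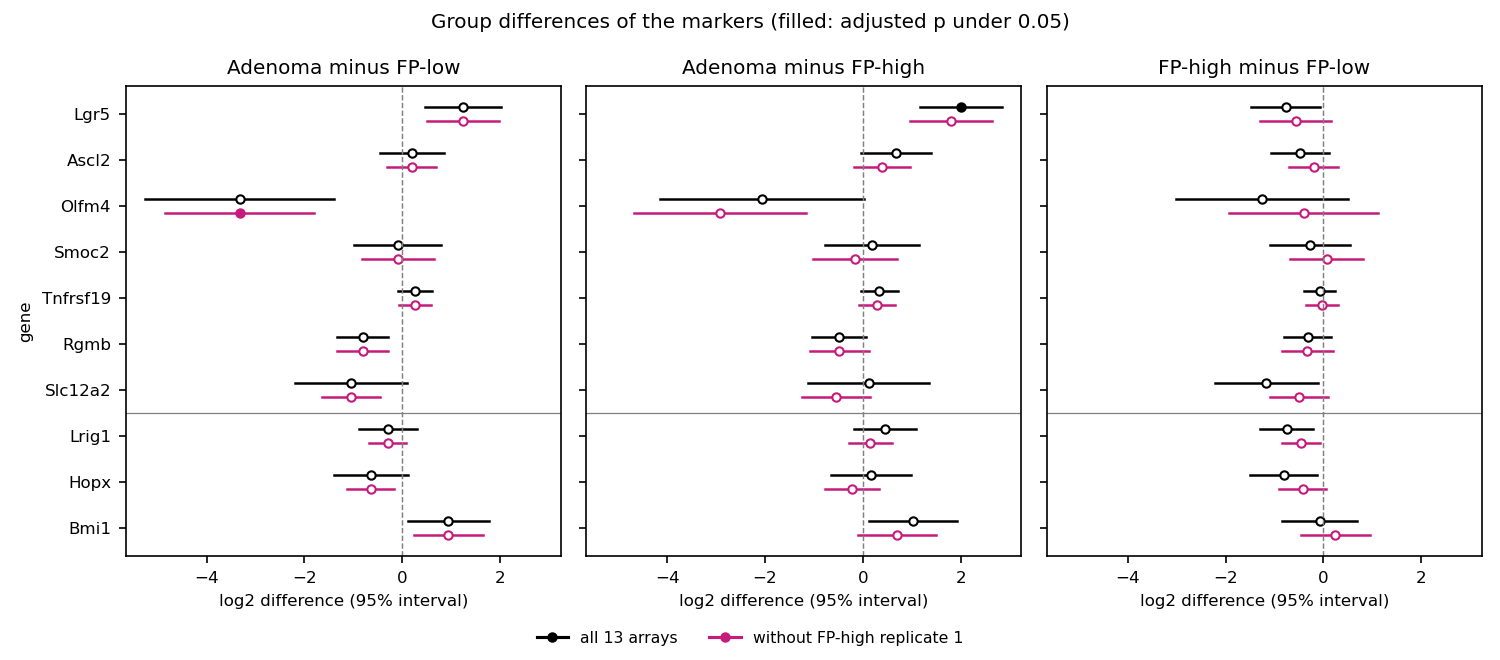
Log2 differences of each marker (points) with 95% intervals (bars) in 3 comparisons, from the fit of all 13 arrays and from the fit without FP-high replicate 1; filled points are called. The filled points are Lgr5 in adenomas against FP-high epithelium (2.004, all arrays) and Olfm4 in adenomas against FP-low epithelium (-3.32, without FP-high replicate 1).

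Between FP-high and FP-low epithelium, all 10 markers had a lower mean in FP-high, where 43.7% of all probe sets did, and the median of all probe sets was 0.05. No marker was called (limma), and 0.00% of all probe sets were. An unadjusted p under 0.05 was reached by 4 markers, Lgr5, Slc12a2, Lrig1 and Hopx, and by 12.7% of all probe sets. The groups overlapped for all 10 markers, and 2.25% of all probe sets had groups that did not. Without FP-high replicate 1, 8 of 10 markers were lower with a median of -0.37, where 45.4% of all probe sets were lower. In that fit 1 marker (Lrig1) had an unadjusted p under 0.05 where 8.53% of all probe sets did, and the calls remained at 0 of 10 markers and 0.00% of all probe sets. By mean level the markers lay between the 53.4 and 97.5 percentiles of all probe sets, so these shares are not over genes of like brightness.

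Crypt base and reserve markers were set side by side through the deviation of each array from the FP-low mean of each gene, averaged over the 7 base markers and over the 3 reserve markers. In adenoma replicates 1, 2 and 3 the base average was -0.62, -0.78 and -0.13, and the reserve average was 0.25, -0.27 and 0.03. This reserve average joins opposite signs. Bmi1 deviated by 1.61, 0.38 and 0.86 in these adenomas, Hopx by -0.83, -0.65 and -0.44, and Lrig1 by -0.04, -0.55 and -0.31. In FP-high replicates 1 to 4 the base average was -1.64, -0.50, -0.03 and -0.30, and the reserve average was -1.55, -0.45, 0.05 and -0.23. FP-low arrays ran from -0.28 to 0.24 for base and from -0.28 to 0.31 for reserve markers.

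Base minus reserve was -0.87, -0.50 and -0.16 in the 3 adenomas and between -0.09 and -0.05 in all 4 FP-high arrays, against -0.21 to 0.45 in FP-low arrays. In each FP-high array, replicate 1 included, the averages of both classes thus lay close together, and adenoma replicates 1 and 2 lay below the FP-low range of this difference. The base average of adenomas joins Lgr5 and Olfm4, whose deviations had opposite signs: in adenoma replicates 1, 2 and 3 Lgr5 deviated by 2.14, 0.75 and 0.82 and Olfm4 by -5.35, -3.77 and -0.84. These averages are a description, with no test, since the markers were chosen with earlier results of the same arrays known.

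**Figure D3:**
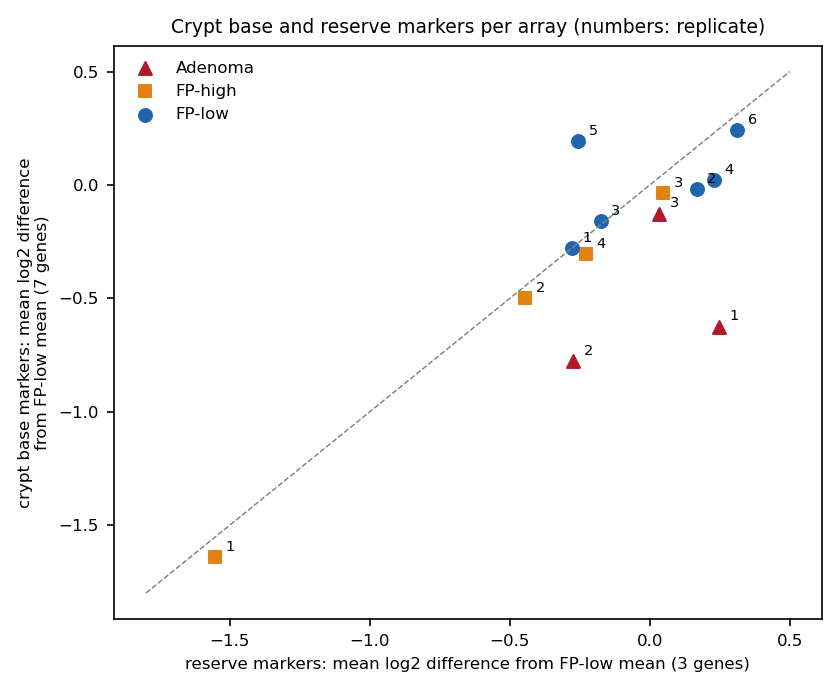
Mean log2 deviation from the FP-low mean of the 7 crypt base markers (vertical axis) against that of the 3 reserve markers (horizontal axis), 1 point per array with its replicate number; the dashed line marks equal values. The 4 FP-high arrays lie along the line, from -1.64 on the vertical axis in replicate 1 to -0.03 in replicate 3, and adenoma replicates 1 and 2 lie farthest below it. In both of these adenomas Olfm4 had the largest deviation of the base markers.

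**Figure D4:**
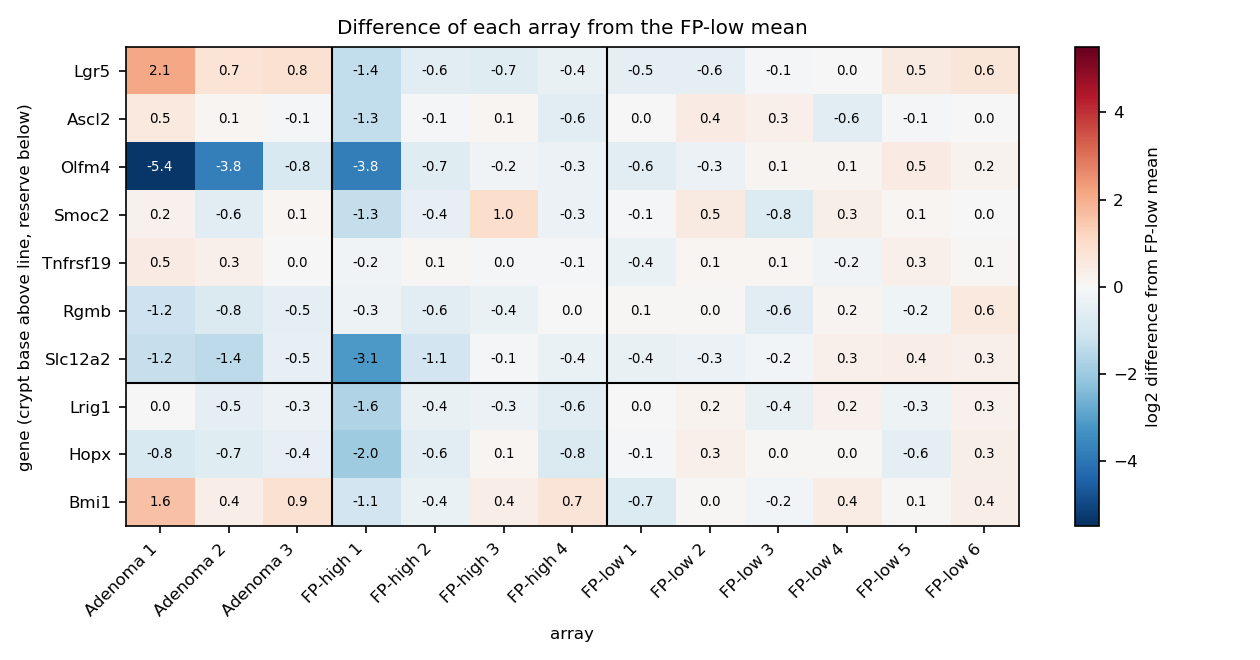
Log2 deviation of each array (columns) from the FP-low mean of each marker (lines of the grid), with the value printed in each cell and blue for lower, red for higher. Adenoma replicate 1 holds the extremes, 2.14 for Lgr5 and -5.35 for Olfm4, and FP-high replicate 1 is below the FP-low mean in all 10 markers.

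By median difference over the genes of a class, FP-high epithelium stood at -0.48 for base and -0.75 for reserve markers relative to FP-low, and at -0.33 and -0.42 without FP-high replicate 1. Adenomas stood at -0.09 and -0.30 relative to FP-low, where the median of all probe sets was -0.06. Against FP-high epithelium the adenoma medians were 0.19 and 0.45, and the median of all probe sets was -0.11. When FP-high replicate 1 was left out they were -0.16 for base and 0.15 for reserve markers, and -0.08 for all probe sets.

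Among 19 further genes of the crypt base signature, 14 had a lower mean in FP-high than in FP-low epithelium (median -0.51, and -0.25 without FP-high replicate 1), where 43.7% of all probe sets did, with none called. In adenomas, 11 of 19 were lower than in FP-low (median -0.06), close to the 61.0% of all probe sets that were lower, with none called in the fit of all arrays. The water channel gene Aqp4 was at -0.88 ± 0.20 in adenomas against FP-low (adjusted p = 0.0862) and was called without FP-high replicate 1 (adjusted p = 0.0394), as was Clca3b, of the chloride channel regulator family (-2.12, adjusted p = 0.00581). Of all probe sets, 0.513% were called as lower there. Prom1, a membrane protein of progenitor cells, was at 2.54 ± 0.67 in adenomas against FP-high epithelium (adjusted p = 0.125) and was called without that array (1.74, adjusted p = 0.0369).

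Genes of the ligand and receptor systems around the markers gave few calls. In the 13 genes of the R-spondin and Wnt receptor module none was called. The Wnt co-receptor Lrp6 had the smallest p there between FP-high and FP-low epithelium (-1.12 ± 0.28, adjusted p = 0.223), and Lgr4, the widely expressed relative of Lgr5, was at -1.24 ± 0.56 and, without FP-high replicate 1, at -0.50 ± 0.34. Rnf43, a ubiquitin ligase that removes Wnt receptors and is itself a Wnt target, was at 0.49 ± 0.21 in adenomas against FP-low epithelium (adjusted p = 0.618). In that comparison 9 of 13 genes of the module were lower (median -0.08), where 61.0% of all probe sets were lower. Fzd5 was at -0.51 and Lgr6 at -0.36.

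Of 14 measured Wnt target genes other than the markers, 11 were higher in adenomas than in FP-low epithelium (median 0.26), where 61.0% of all probe sets were lower, and 2 were called, against 0.551% of all probe sets. Compared with FP-high epithelium 13 were higher (median 0.39), where 59.6% of all probe sets were lower, and 3 were called, against 0.765%. Omission of FP-high replicate 1 gave 10 higher and 2 called against FP-high epithelium. The transcription factor Prox1 rose by 3.18 ± 0.47 against FP-low (limma, adjusted p = 0.00650) and by 3.03 ± 0.51 against FP-high epithelium (adjusted p = 0.0155). Nkd1, a feedback inhibitor of Wnt signalling, rose by 2.04 ± 0.41 against FP-low (adjusted p = 0.0446) and by 2.12 ± 0.44 against FP-high epithelium (adjusted p = 0.0463, and 0.0658 without FP-high replicate 1). The hyaluronan receptor Cd44 rose by 2.48 ± 0.40 against FP-high epithelium (adjusted p = 0.0133). Against FP-low epithelium Cd44 was at 1.40 and was not called. The 3 targets with lower adenoma means than in FP-low epithelium were Ccnd1 (-0.43), Axin2 (-0.25) and Apcdd1 (-0.05), none of them called. Of the Wnt targets among the markers, Lgr5, Ascl2 and Tnfrsf19 all had higher adenoma means in both comparisons, and of these 6 differences that of Lgr5 against FP-high epithelium passed.

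None of 10 Notch genes of the crypt was called. Atoh1, the factor of secretory differentiation that Notch represses, was at 0.77 ± 0.36 in adenomas against FP-low epithelium (adjusted p = 0.670), and the Notch target Hes5 was at -0.28 ± 0.18. Of the same list, Hey1 was at 0.60 and Hes1 at -0.002 in this comparison. There 7 of 10 Notch genes were lower (median -0.06), where 61.0% of all probe sets were lower (median -0.06). Among 18 genes of the BMP module none was called. Neo1, which encodes neogenin, the binding partner of Rgmb, was at -1.04 ± 0.30 in FP-high against FP-low epithelium (adjusted p = 0.263) and, without FP-high replicate 1, at -0.64 ± 0.16 (adjusted p = 0.285). The ligand Bmp2 was at 1.18 ± 0.50 in adenomas against FP-low epithelium (adjusted p = 0.601).

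Partners of the reserve markers did not pass either. Of 6 genes of the EGF receptor family and its Lrig relatives none was called, with Erbb2 at -0.39 ± 0.17 in adenomas against FP-low epithelium. Of 13 further genes of Polycomb repressive complex 1 none was called, with Rnf2, its catalytic ubiquitin ligase, at 0.82 ± 0.35 in adenomas against FP-low epithelium (adjusted p = 0.626). Of 10 other genes named for reserve or quiescent stem cells, 1 was called in adenomas: Clu, a secreted chaperone found in regenerating crypts, which rose by 4.03 ± 0.35 against FP-low epithelium (adjusted p = 5.46e-05), where 0.551% of all probe sets were called. The median of those 10 genes was 0.03.

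**Figure D5:**
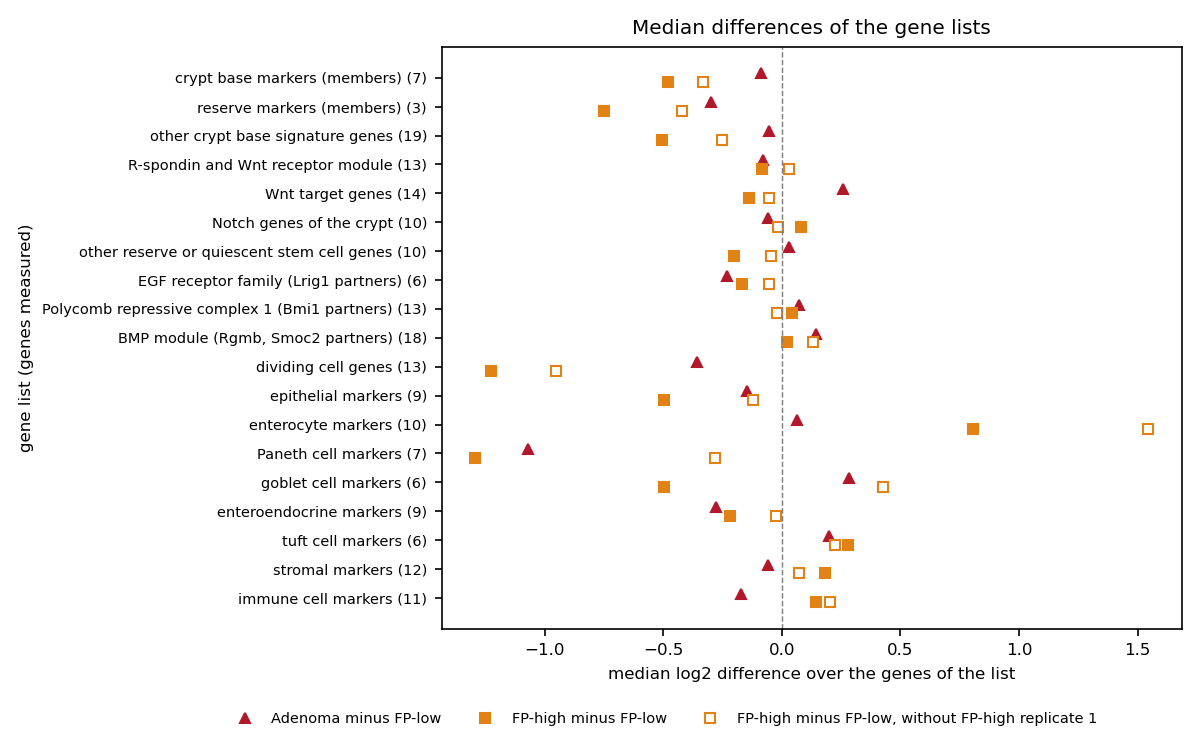
Median log2 difference (horizontal axis) over the genes of each list (vertical axis, number measured in brackets) for adenomas and for FP-high epithelium relative to FP-low, and for FP-high epithelium also without replicate 1. In FP-high epithelium the medians of the base and reserve markers, -0.48 and -0.75, lie between that of dividing cell genes at -1.23 and that of enterocyte markers at 0.81.

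Markers of other crypt cells also differed in mean between the groups. All 13 measured genes of dividing cells had a lower mean in FP-high than in FP-low epithelium (median -1.23, and -0.95 without FP-high replicate 1), where 43.7% of all probe sets did, with none called. Their mean level was 5.54 to 7.04 in FP-high arrays and 7.15 to 7.69 in FP-low arrays, without overlap. All 10 enterocyte markers had a higher mean in FP-high epithelium (median 0.81, and 1.54 without FP-high replicate 1), with mean levels of 6.73 to 10.37 in FP-high and 6.51 to 9.12 in FP-low arrays. Epithelial, Paneth and goblet markers had medians of -0.50, -1.29 and -0.50 in FP-high against FP-low epithelium. Without FP-high replicate 1 these were -0.12, -0.28 and 0.43. Enteroendocrine and tuft cell markers had medians of -0.22 and 0.28 in the fit of all arrays. The part of all these cells in the marker differences between FP-high and FP-low epithelium was not tested.

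In adenomas, all 7 measured Paneth cell markers had a lower mean than in FP-low epithelium (median -1.07), where 61.0% of all probe sets did. Their mean levels were 7.41 to 8.83 in adenomas and 8.99 to 10.07 in FP-low arrays. None was called in the fit of all 13 arrays. Without FP-high replicate 1 the antimicrobial genes Lyz1 (-2.41, adjusted p = 0.0236) and Defa24 (-1.07, adjusted p = 0.0382) were called as lower, as were 0.513% of all probe sets. Among stromal markers the matrix protein gene Dcn was called as higher against FP-low epithelium (2.46 ± 0.48, adjusted p = 0.0410), where 0.551% of all probe sets were called. It read 4.41 to 7.62 in adenomas, 3.48 to 4.07 in FP-high and 3.35 to 3.96 in FP-low arrays. The mean over 12 stromal markers was 4.38 to 4.89 in adenomas, 4.37 to 4.68 in FP-high and 4.26 to 4.59 in FP-low arrays. Of 11 immune markers, Ptprc, the pan-leukocyte antigen, was also called as higher against FP-low epithelium (1.00 ± 0.17, adjusted p = 0.0191), while the mean of that list was 4.23 to 4.39 in adenomas, 4.46 to 5.32 in FP-high and 4.54 to 4.99 in FP-low arrays. Lyz2, the lysozyme gene of macrophages, was at -2.39 (adjusted p = 0.123) and was called as lower without FP-high replicate 1 (adjusted p = 0.0214). Its difference was close to that of Lyz1, and whether its probe set tells these genes apart was not tested. None of 9 epithelial, 6 goblet, 9 enteroendocrine and 6 tuft cell markers was called in any of the 4 comparisons of the fit of 13 arrays. Leaving out FP-high replicate 1, the keratin Krt18 was called as higher against both normal groups (1.08, adjusted p = 0.0344). The part of these cells in the differences of Lgr5, Olfm4 and Bmi1 was not tested.

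The genes whose pattern over the arrays was most like that of 3 markers were found among 19937 others by Pearson's r, which describes these arrays and reflects the group differences and array quality that all genes share. For Lgr5 they were Psip1 (0.95), Kdm6a (0.94) and Rnf138 (0.94) over 13 arrays, and Psip1 (0.95), Pbx3 (0.93) and Zfp950 (0.93) over the 12 without FP-high replicate 1. Olfm4 was most like Cps1 (0.95), Slc27a2 (0.94) and Gm8995 (0.94) over 13 arrays, and Cps1 (0.95), Rps3 (0.94) and H2az2 (0.94) over 12. Hopx was most like Cbx1 (0.96), Lage3 (0.96) and Sdc4 (0.95) over 13 arrays, and Cbx1 (0.91), Lage3 (0.91) and H2ax (0.89) over 12. Psip1 read 7.04 to 7.86 in adenomas, 5.13 to 6.36 in FP-high and 6.05 to 6.98 in FP-low arrays, so that it shared with Lgr5 an adenoma range above the normal arrays. Cps1 read 7.35 to 9.65 in adenomas, 7.84 to 11.1 in FP-high and 10.7 to 11.3 in FP-low arrays, and like Olfm4 had all 3 adenomas below all FP-low arrays.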

How the data were processed

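The authors deposited 1 log2 level for each of 35556 probe sets on each of 13 arrays, made with the Affymetrix Command Console (per the design text) and the Expression Console and Transcriptome Analysis Console (per the submitters' processing notes). For program versions, background correction, normalization and genome build the sources used here give nothing, and the log2 scale was inferred from the values. Per the labels' protocols, RNA of isolated crypts was extracted with a kit for very small samples, amplified with the NuGEN Ovation One-Direct system and labelled with the Encore Biotin module. Gene names come from the platform annotation: 21789 had 1 symbol, 1621 had several and were tested but not named, and 12146 had none and were left out.

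The 23410 named probe sets were fitted with limma 3.58.1 in R 4.3.3 (lmFit and eBayes) on the deposited log2 values, with 3 groups, no covariate and no filter. The Benjamini-Hochberg adjustment ran over all of them in each of 4 comparisons. SDs of levels are over the arrays of a group. The fit was tested on simulated data. Arrays of FP-high and adenoma samples with the same replicate number deviated together from their group means (correlations 0.233, 0.102 and 0.220 for numbers 1, 2 and 3, all over 0.1), so a blocked fit (replicate number as block) is given where it ends a call of a marker. Whether the calls of other genes hold in the blocked fit was not examined. The pairing by replicate number comes from the data and not from the labels. Arrays with different replicate numbers were not correlated, so these correlations cannot show that the numbers pair samples. For pairs with FP-low arrays, which the block also joins by number, the correlations ran from -0.361 to 0.178.

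The markers and the further gene lists were chosen with earlier results of these data known. Each marker is named. From every other list the called genes are named, or up to 2 with the smallest p where none was called, and for Lgr5, Olfm4 and Hopx the 3 genes with the highest correlation. Some further list genes are named, among them genes that went the other way. List genes were read on their brightest probe set with 1 symbol. All 10 markers matched RefSeq genes by Entrez identifier, and promoter sequences are those of RefSeq for GRCm38.p6. Alternatives were quantile normalization, array weights, a filter on dim probe sets, all probe sets tested, fits of only the groups compared, a trended robust variance prior, the replicate block and leaving out each array.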

Additional observations from a re-analysis of the deposited data

Results flagged for a closer look

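Olfm4 in the array labelled FP-high replicate 1 lay far below the other arrays of its group, at a log2 level of 6.61 against 9.74, 10.22 and 10.08 in FP-high replicates 2, 3 and 4. The gap to its nearest neighbour was 0.867 of the range of the group, above Dixon's 95% critical value of 0.829 for 4 samples. Of the 20 sets of values examined in this way (10 markers in the FP-high and FP-low groups) this was the 1 that passed, and chance alone marks about 1 in 20. Groups of 3, and so the adenomas, were not examined.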

How the results depend on the processing

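The Lgr5 call in adenomas against FP-high epithelium (2.004, adjusted p = 0.0327) ended with all probe sets tested (adjusted p = 0.0510), in a fit of the compared groups alone (adjusted p = 0.188), after quantile normalization (1.83, 0.0718) and with the replicate block (2.11, 0.108), and ranged from 1.55 to 2.25 with 1 array left out. Its call against both normal groups ended with all probe sets tested (1.62, adjusted p = 0.0571), after quantile normalization (1.49, 0.0879) and with the replicate block (1.87, 0.118), and ranged from 1.17 to 1.87 with 1 array left out. Array weights added calls for Olfm4 against FP-low (-3.03, adjusted p = 0.0234) and both normal groups (-2.81, 0.0243) and for Rgmb against FP-low (-0.84, 0.0216), and with 1 array left out Olfm4 ran from -4.56 to -2.30 and from -3.93 to -1.68 in the first 2 of these. Signs turned only for differences that were not called. With array weights these were Bmi1 (0.10) and Tnfrsf19 (0.011) in FP-high against FP-low, Hopx (-0.15), Slc12a2 (-0.41) and Smoc2 (-0.17) in adenomas against FP-high, and Lrig1 (-0.17) and Smoc2 (-0.24) in adenomas against both normal groups. Quantile normalization turned Slc12a2 against FP-high (-0.39) and Smoc2 against both normal groups (-0.025), and the replicate block turned Bmi1 (0.035) and Tnfrsf19 (0.012) in FP-high against FP-low. With 1 array left out the ranges that crossed 0 were, in FP-high against FP-low, -0.35 to 0.25 for Bmi1 and -0.69 to 0.07 for Smoc2, in adenomas against FP-high, -0.22 to 0.47 for Hopx, -0.54 to 0.48 for Slc12a2 and -0.16 to 0.61 for Smoc2, in adenomas against FP-low, -0.24 to 0.17 for Smoc2, and in adenomas against both normal groups, -0.074 to 0.20 for Lrig1 and -0.12 to 0.31 for Smoc2. Over all probe sets the calls between FP-high and FP-low numbered 0, with 1 after quantile normalization, 3 with array weights and 0 to 136 with 1 array left out. Adenomas against FP-low gave 129 calls, 868 with array weights, 343 in the compared groups alone, 37 with the replicate block and 78 to 370 with 1 array left out. Against FP-high the counts were 179, 594, 46 and 51 under the same settings, and 72 to 281 with 1 array left out. Against both normal groups they were 213, 1153 with array weights, 67 with the replicate block and 92 to 488 with 1 array left out. The replicate block ended no other call of a marker, and the cause of these changes was not tested. The trended robust prior and the filter on dim probe sets, which all 10 markers passed, changed no direction or call of a marker. Each marker has 1 probe set, so another probe set could give no value. Detection calls are not in the table used here, so a low level cannot be set against background.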
